A study of Mus musculus with 2 samples.

Results

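The TRIM family was taken as every row of the count table whose symbol begins with Trim followed by a number, which gave 67 of 30538 genes. RNA was sequenced from cells sorted out of the spleen as CD11b-positive, Ly6G-negative and Ly6C-low, which the labels name resident splenic macrophages. The mice had received 100000 Listeria monocytogenes intravenously and the cells were taken on day 3, about 100000 per sort. There were 2 libraries, 1 labelled Ch25h-/- and 1 labelled C57BL/6. Ch25h encodes cholesterol 25-hydroxylase, the source of 25-hydroxycholesterol. Both groups were infected, so no uninfected baseline was measured. The labels give neither the age of the mice, nor the number of mice behind each library, nor the cells in which the allele is absent.

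TRIM proteins share a front end of a RING finger, 1 or more B-boxes and a coiled coil. The RING recruits an E2 enzyme loaded with ubiquitin, so most members are ubiquitin ligases, while the rear domain differs between members and chooses the target. A PRY-SPRY rear domain is the commonest, and other members carry a PHD finger with a bromodomain, NHL repeats, a COS box or a membrane anchor. Many members are induced by interferon in macrophages and act on the pathways that sense viral and bacterial nucleic acid.

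The Ch25h-/- library held 15986392 gene counts and the C57BL/6 library 16957371. Ch25h itself had 0 counts in the Ch25h-/- library and 3 counts in the C57BL/6 library, too few to check the genotype labels. No replicate of either genotype was sequenced, so differences have no replicate check and no p-value is given. The values below compare 2 libraries. Their 95% intervals are exact for counting and leave out variation between mice, sorts and library preparations. Marker genes of other cell types also differed between the libraries. Summed over each marker list, conventional dendritic cell genes had 563 CPM in the Ch25h-/- library and 1801 CPM in the C57BL/6 library (CPM, counts relative to the TMM-scaled library size). Of the 12 listed, 10 were measured and 8 were at least 2-fold lower, and the dendritic cell gene Xcr1 had 6 counts in the Ch25h-/- library and 0 in the C57BL/6 library. Macrophage markers summed to 462 and 716 CPM in the same order of libraries, with 6 of 14 at least 2-fold lower and none at 0. NK and cytotoxic lymphocyte markers summed to 20748 CPM in the Ch25h-/- library and 12854 CPM in the C57BL/6 library, with all 12 higher, 4 of them at least 2-fold. Neutrophil markers summed to 2061 and 1176 CPM in that order. Of these 10 markers, 5 were at least 2-fold higher, 8 lay wholly above a ratio of 1 and 1 lay wholly below it. Cell cycle genes summed to 2696 and 1498 CPM in that order, with 4 of 12 at least 2-fold higher. B cell markers summed to 862 CPM in the Ch25h-/- library and 1399 CPM in the C57BL/6 library, with 1 of 8 at least 2-fold lower. Ly6C-high monocyte markers summed to 2815 and 1824 CPM in that order, and all 6 were higher. Ly6C-low monocyte markers summed to 2873 and 2382 CPM, a sum that Itgal and Spn carry, while 6 of the 9 lay wholly below a ratio of 1 (median log2 ratio -0.39) and Fcgr4 was at least 2-fold lower. T cell markers summed to 394 and 296 CPM, mostly Lck (320 and 186 CPM), and had a median of -0.10, with 2 of 9 wholly above and 2 wholly below. Beside these counts, 2.07% of all 11972 measured genes (defined below) were at least 2-fold higher and 5.77% at least 2-fold lower. The whole interval lay above a ratio of 1 for 31.0% of them and below it for 27.5%. Erythroid markers were all below the measured level. The part of these cell types in the TRIM values below was not tested, and in bulk RNA fewer cells of a type cannot be told apart from less RNA per cell.

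Of the 67 TRIM genes, 51 had at least 1 count, and 42 were measured, meaning a mean over both libraries of at least 1 CPM. As a family they took nearly the same share of all counts in both genotypes. The share was 0.361% in the Ch25h-/- library (Clopper-Pearson interval 0.358 to 0.364%) and 0.354% in the C57BL/6 library (0.351 to 0.356%). The median log2 ratio of the measured members, Ch25h-/- over C57BL/6, was 0.03, beside 0.01 over all 11972 measured genes. Among measured members 1 was at least 2-fold higher with an interval that excluded a ratio of 1, where 2.07% of all measured genes were. A further 2 members were lower by that rule, where 5.77% of all measured genes were. These shares are 2.38% and 4.76% of the 42 members, close to the background, and all 3 genes lay under 3 CPM on average. None of the 33 members with a mean of at least 10 CPM differed 2-fold, where 0.975% of all genes at that level were higher and 2.88% lower.

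Below 2-fold, many members still differed by more than counting error. At a threshold of 1.5-fold, 5 members were higher, where 7.35% of all measured genes were, and 5 were lower, where 11.2% were. The whole interval lay above a ratio of 1 for 16 members, or 38.1% against 31.0% of all measured genes, and below it for 12 members, or 28.6% against 27.5%. At this depth counting error is small for an abundant gene, so these counts show which ratios are precise and not which differ between genotypes. The sections below therefore go by group, with the value in each library.

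**Figure D1:**
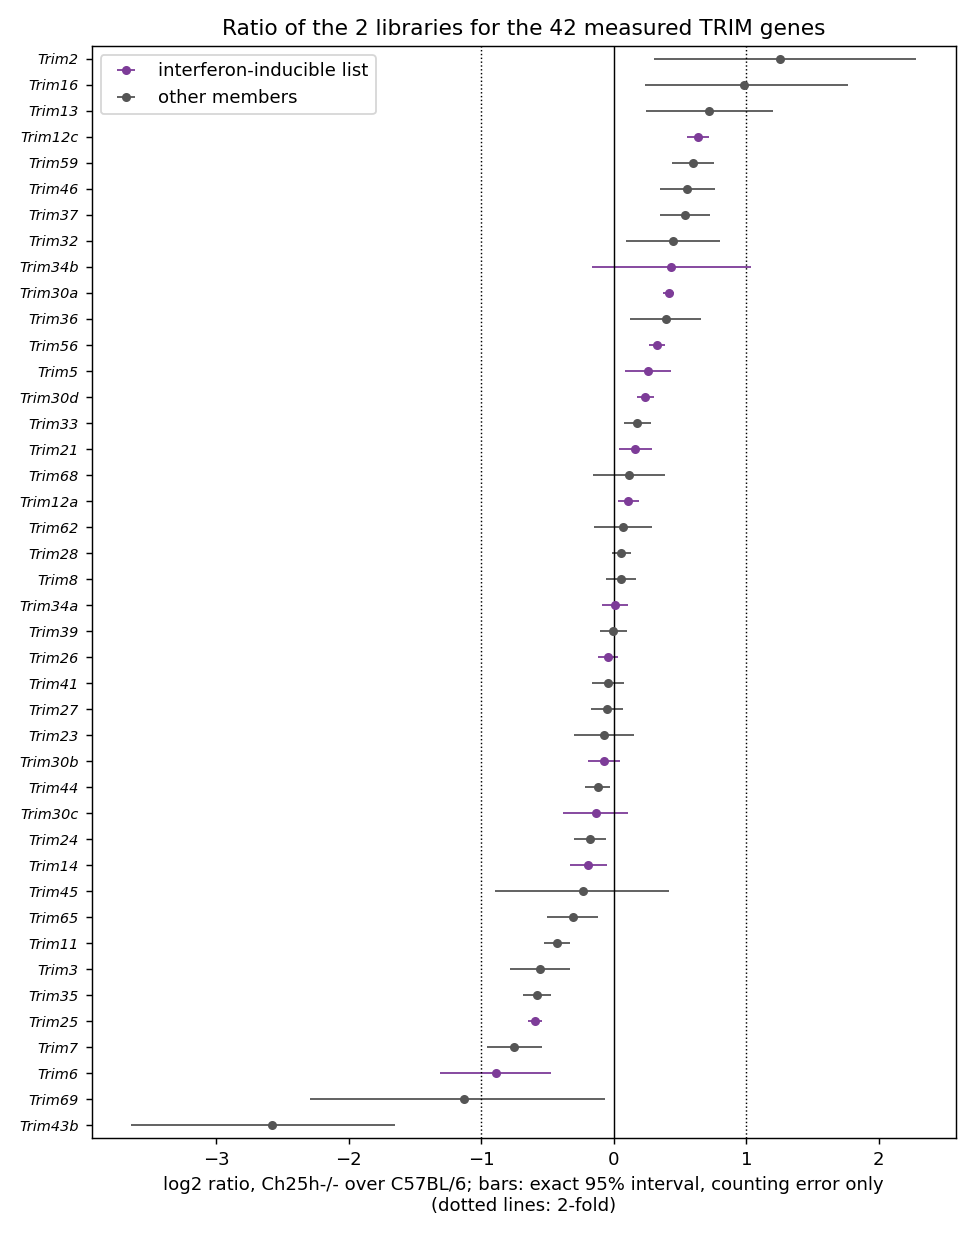
Log2 ratio of the Ch25h-/- library over the C57BL/6 library for each of the 42 measured TRIM genes, with exact 95% intervals for counting error. Most points lie between the dotted 2-fold lines, and the members beyond them (Trim2, Trim69 and Trim43b) have wide intervals.

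The most abundant member was Trim30a (ENSMUSG00000030921, GRCm38 chromosome 7, 104409025 to 104465193, minus strand), a mouse gene that interferon and Toll-like receptor signals induce and that restrains NF-kB signalling. It had 714 CPM in the Ch25h-/- library and 536 CPM in the C57BL/6 library, a log2 ratio of 0.41 (95% interval 0.37 to 0.45). Trim30a alone made up 19.6% of the family's counts in the Ch25h-/- library and 15.3% in the C57BL/6 library. Trim25 (ENSMUSG00000000275, chromosome 11, 88999376 to 89020293, plus strand), the ligase of the RNA sensor RIG-I, stood the other way. It had 309 CPM in the Ch25h-/- library and 467 CPM in the C57BL/6 library, 1.51-fold lower, with a log2 ratio of -0.60 (-0.65 to -0.55). Its share of the family was 8.47% in the Ch25h-/- library and 13.3% in the C57BL/6 library.

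Levels of different genes can be compared only per length, here as CPM per kilobase of annotated exon. On that scale Trim30a led both libraries, with 174 CPM per kilobase in the Ch25h-/- library and 130.5 CPM per kilobase in the C57BL/6 library. The next places changed between libraries. In the Ch25h-/- library Trim30d (65.1 CPM per kilobase) stood above Trim25 (53.7) and Trim28 (49.8), and the intervals of Trim28 and Trim12c (48.6) overlapped. In the C57BL/6 library Trim25 (81.2 CPM per kilobase) stood above Trim30d (55.2), Trim28 (47.8) and Trim34a (37.4). Over the whole order, 27 of the 41 neighbouring pairs overlapped in the Ch25h-/- library and 26 of 41 in the C57BL/6 library. The exact order of many members is therefore not resolved.

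**Figure D2:**
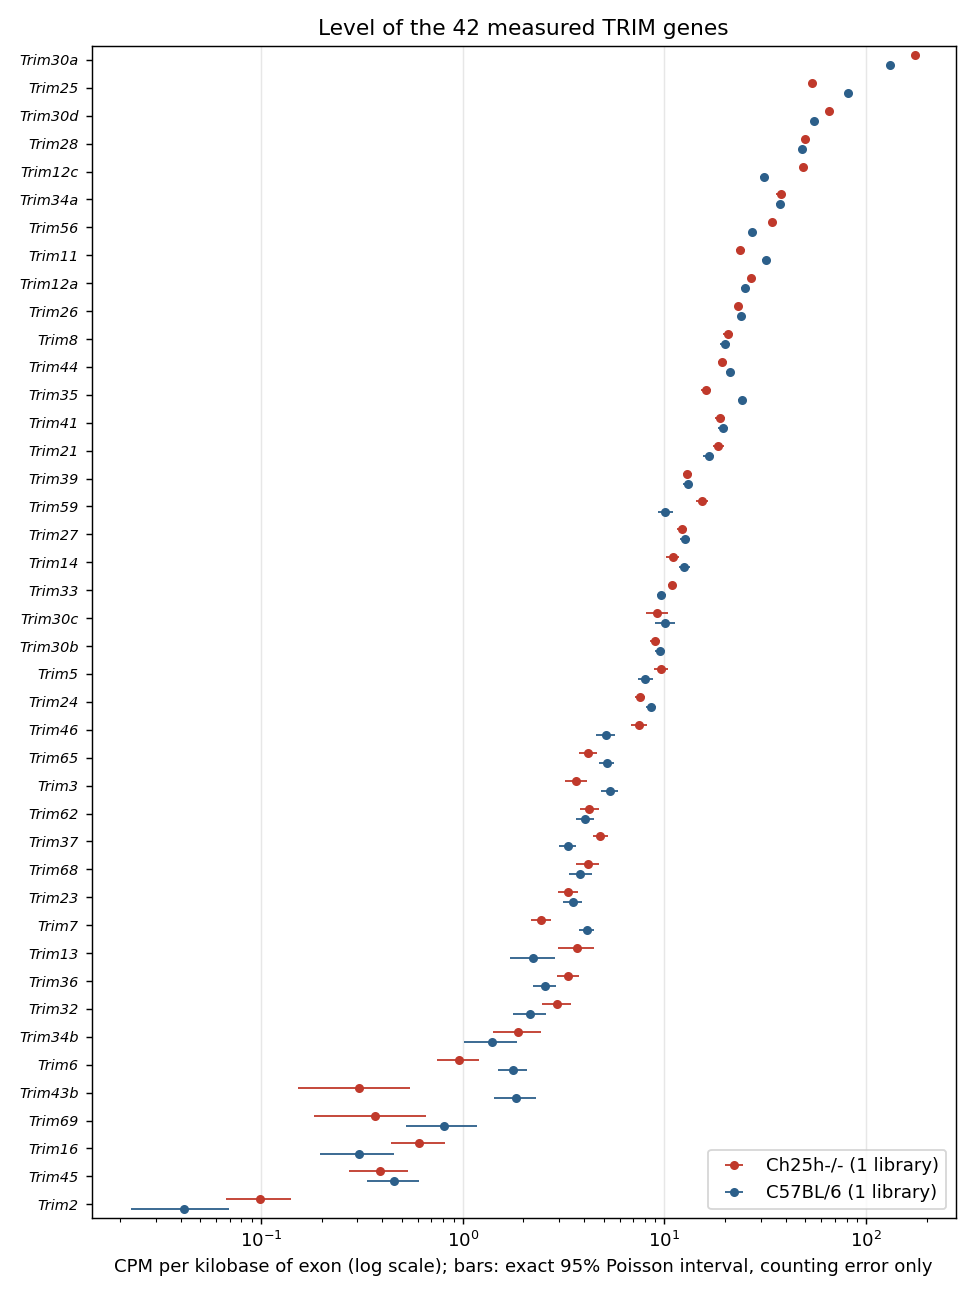
Level of each measured TRIM gene in CPM per kilobase of exon on a log axis, Ch25h-/- above C57BL/6 in each row, with exact 95% Poisson intervals. Levels span from Trim30a (174 and 130.5 CPM per kilobase) to Trim2 (0.0991 and 0.0414), and the distance between libraries is small beside that range.

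A cluster of 10 TRIM genes lies together on chromosome 7, from Trim6 at 104218793 to the end of Trim30d at 104507849. The cluster holds the mouse relatives of TRIM5, which in primates recognises retroviral capsids. All 10 were measured, and together they had 1521 CPM in the Ch25h-/- library and 1232 CPM in the C57BL/6 library, a log2 ratio of 0.30 (0.28 to 0.33). Of the 10, 5 lay wholly above a ratio of 1 and 1 wholly below (31.0% and 27.5% of all measured genes), and none differed 2-fold.

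Cluster genes are known as interferon targets, and the start regions of 6 of the 10 hold a match to the sequence that interferon-activated factors bind. The interferon-stimulated response element was searched for as GAAA, any 2 bases and GAAA again, on both strands, in windows from 250 bases before to 50 bases after each annotated start (RefSeq, GRCm38.p6). Windows were given for 52 of the 67 members. The motif was in 9 of these 52 genes, and in 3.99% of the 27025 genes with a window. By list, it was in 8 of the 15 matched members known to be induced by interferon (Trim5, Trim12a, Trim12c, Trim21, Trim26, Trim30a, Trim30d and Trim34a) and in 1 of 37 others (Trim2). The windows of the other cluster genes, Trim6, Trim30b, Trim30c and Trim34b, did not hold these letters. The Trim30b window (104358597 to 104358896, minus strand) lies inside the gene as annotated in GENCODE (104355382 to 104369884). It therefore does not cover the GENCODE start of Trim30b, and the absence there is not informative about it. The same holds for Trim38 of the interferon list, whose window (23782291 to 23782590, plus strand) lies inside the gene (23769913 to 23791528). The match of Trim2 is in a window (84212789 to 84213088, minus strand) inside the gene (84160439 to 84306877), and its other windows had none. The counts by list carry these limits. Of 66 windows of members, 56 ended in 30 bases found in a GENCODE transcript of the gene. None of these matches overlapped a match of TTCNNNGAA, the GAS motif of interferon-gamma signalling, which 6 of 52 matched members and 9.55% of all genes held. The stretches of 30 bases around the match are printed along the gene, with the match in capitals, because they show which cluster genes carry the same element.
Trim30a (chr7:104465210-104465239, minus strand): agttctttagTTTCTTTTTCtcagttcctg
Trim30d (chr7:104507871-104507900, minus strand): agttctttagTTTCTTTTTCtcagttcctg
Trim5 (chr7:104288136-104288165, minus strand): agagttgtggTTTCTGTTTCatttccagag
Trim12a (chr7:104315466-104315495, minus strand): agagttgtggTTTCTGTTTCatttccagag
Trim12c (chr7:104353359-104353388, minus strand): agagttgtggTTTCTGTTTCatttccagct
Trim34a (chr7:104244457-104244486, plus strand): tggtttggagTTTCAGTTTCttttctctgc
Trim21 (chr7:102565450-102565479, minus strand): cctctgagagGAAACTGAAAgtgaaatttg
Trim26 (chr17:36836976-36837005, plus strand): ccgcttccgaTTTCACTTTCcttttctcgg

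Trim30a and Trim30d were identical over 30 of 30 bases of this stretch, and so were Trim5 and Trim12a, while Trim12c matched each of the last pair at 28 of 30. Trim30a has a second annotated start, whose stretch matched the first at 26 of 30 bases. Over the whole windows, Trim30a and Trim30d were 90.8% identical, Trim5 and Trim12c 82.5%, Trim12a and Trim12c 72.6%, and Trim5 and Trim12a 67.1%. The windows begin at different distances from the element, and these percentages count ends that do not align as differences. They therefore do not rank how alike the sequences are. Trim5 and Trim12a had the lowest of these values although all 241 bases that their windows share were identical. The window of the second Trim30a start was 65.5% identical to that of Trim30d, with unaligned ends counted in the same way. Trim21 and Trim26 each held a second, overlapping match. In the cluster the match began at position -36 for Trim30a, -41 for Trim30d, -49 for Trim5, -29 for Trim12c and 11 for both Trim12a and Trim34a, counting the first transcribed base as 1. In Trim21 the matches began at 14 and 20, and in Trim26 farther upstream, at -160 and -154. A match of letters is a description and does not show binding.

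The full windows of the leading pair of members are printed below. The Trim30a window holds the element in capitals, and these letters are not in the Trim25 window. Only exact letters were searched, so near matches were not counted. A match was also in the windows of Trim34a (log2 ratio 0.01) and Trim26 (-0.04), and none was in that of Trim56 (0.33). Whether the element bears on the ratios was not tested.
Trim30a (chr7:104465144-104465443, minus strand): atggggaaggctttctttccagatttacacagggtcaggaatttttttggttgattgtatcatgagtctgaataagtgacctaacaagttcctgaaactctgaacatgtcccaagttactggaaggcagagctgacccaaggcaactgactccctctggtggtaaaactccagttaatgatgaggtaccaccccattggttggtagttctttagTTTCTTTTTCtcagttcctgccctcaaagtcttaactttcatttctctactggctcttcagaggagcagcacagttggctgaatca
Trim25 (chr11:88999153-88999452, plus strand): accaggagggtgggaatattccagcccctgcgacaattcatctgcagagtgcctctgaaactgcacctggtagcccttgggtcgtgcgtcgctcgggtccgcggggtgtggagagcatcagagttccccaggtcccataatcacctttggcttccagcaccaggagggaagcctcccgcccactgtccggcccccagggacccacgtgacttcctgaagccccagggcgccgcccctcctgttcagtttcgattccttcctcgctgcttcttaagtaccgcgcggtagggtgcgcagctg

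Genes that carry the same element did not share the same ratio. Trim12c (ENSMUSG00000057143), a mouse relative of TRIM5, had 182 CPM in the Ch25h-/- library and 117 CPM in the C57BL/6 library, a log2 ratio of 0.64 (0.55 to 0.72). That was the highest ratio of any member with a mean of at least 10 CPM. Trim12a had 156 CPM in the Ch25h-/- library and 144 CPM in the C57BL/6 library (log2 ratio 0.11, 0.03 to 0.19), a far smaller difference from a neighbour with a near-identical element. Trim5 had 35.5 CPM in the Ch25h-/- library and 29.7 CPM in the C57BL/6 library (0.26, 0.08 to 0.43). Trim30d had 245 and 207 CPM in the Ch25h-/- and C57BL/6 libraries (0.24, 0.17 to 0.30).

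Of the other cluster members, 4 were level within counting error and 1 was lower. Trim34a had 97.6 CPM in the Ch25h-/- library and 97.0 CPM in the C57BL/6 library (log2 ratio 0.01, -0.09 to 0.11). Trim30b, with 67.7 and 71.3 CPM in that order of libraries (-0.07), and Trim30c, with 15.8 and 17.4 CPM (-0.14), had intervals that included a ratio of 1. So did Trim34b, with 55 counts in the Ch25h-/- library and 44 counts in the C57BL/6 library (0.43, -0.17 to 1.04). Trim6, whose human counterpart makes free ubiquitin chains that activate the kinase IKK-epsilon, was the only one of the 10 whose whole interval lay below a ratio of 1. It had 74 counts in the Ch25h-/- library and 148 counts in the C57BL/6 library, 1.85-fold lower (-0.89, -1.31 to -0.48).

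Copies in the cluster share sequence, and the sources do not say how reads that match several genes were counted. Of the distinct 50-base words of each gene's annotated transcripts, 59.7% of those of Trim34a and 56.8% of those of Trim34b also occur in other genes' transcripts. The value was 36.6% for Trim5 and 33.7% for Trim12c, which share mostly with each other, 10.5% for Trim12a, 7.49% for Trim30d and 5.98% for Trim30a. Single values of Trim5, Trim12c, Trim34a and Trim34b are therefore uncertain. Summing copies sets aside the division of reads among the summed genes, but not reads left out of the counts or shared with other genes. For Trim34a, 39.8% of the words occur in Trim34b, so part of its sharing lies outside that sum. Trim5, Trim12a and Trim12c together had 373 CPM in the Ch25h-/- library and 291 CPM in the C57BL/6 library (log2 ratio 0.36, 0.30 to 0.41). The 4 Trim30 genes together had 1043 and 832 CPM in that order (0.32, 0.29 to 0.36). Trim34a and Trim34b together had 101 and 99.6 CPM (0.02, -0.08 to 0.12). Part of the exons of Trim34a (23.5% of their length) also overlaps a gene on the opposite strand, and the use of strand in counting is not stated.

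**Figure D3:**
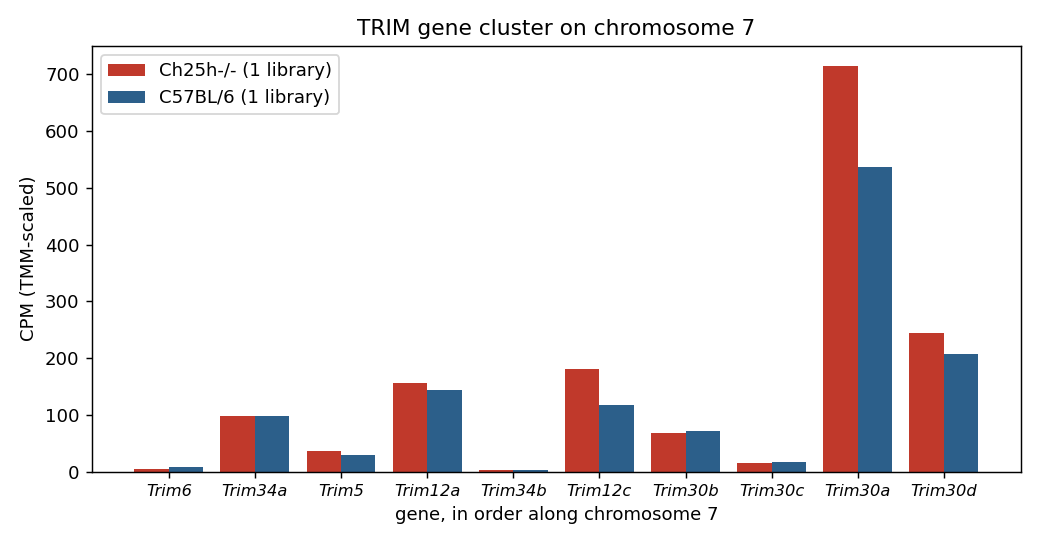
CPM of the 10 genes of the chromosome 7 cluster in their order along the chromosome, Ch25h-/- bar left of the C57BL/6 bar, 1 library each. Trim30a and Trim12c have visibly taller Ch25h-/- bars, and Trim34a, Trim30b and Trim30c are level within counting error.

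Interferon-inducible members outside the cluster went both ways. Trim56, reported in human cells to act on the DNA sensing pathway, had 317 CPM in the Ch25h-/- library and 252 CPM in the C57BL/6 library (log2 ratio 0.33, 0.27 to 0.39). Trim21, the antibody receptor of the cytosol, had 68.7 CPM in the Ch25h-/- library and 61.4 CPM in the C57BL/6 library (0.16, 0.04 to 0.28). Trim26, a ligase encoded beside the MHC class I genes, was level, with 160 and 165 CPM in that order (-0.04, -0.12 to 0.03). Trim14, which lacks a RING and works as an adaptor of the antiviral protein MAVS, had 47.7 CPM in the Ch25h-/- library and 54.4 CPM in the C57BL/6 library (-0.19, -0.33 to -0.05), and 38.0% of its exon length overlaps genes on the opposite strand. Trim38, a brake on Toll-like receptor signalling, had 0 counts in the Ch25h-/- library and 4 in the C57BL/6 library and was not measured.

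Over the interferon list 15 of 16 members were measured. Their median log2 ratio was 0.11, with 7 wholly above a ratio of 1 and 3 wholly below (31.0% and 27.5% of all measured genes), and none at 2-fold. Without the groups of related copies (Trim5, Trim12, Trim30, Trim34 and Trim43) the median of the few list members left was -0.12. That setting kept Trim6 of the cluster, so the side of 0 rests on the groups left out and not on the whole cluster. The groups left out include Trim30a, of whose 50-base words only 5.98% occur in other genes. Of 25 interferon-stimulated genes outside the family, 3 lay wholly above and 15 wholly below a ratio of 1 (31.0% and 27.5% of all measured genes), with a median of -0.10. Among them the antiviral enzyme gene Oas2 had 208 CPM in the Ch25h-/- library and 323 CPM in the C57BL/6 library (-0.64), and its relative Oasl2 had 290 and 448 CPM (-0.63). Ifi44 had 93.2 CPM in the Ch25h-/- library and 43.1 CPM in the C57BL/6 library (1.11). The difference between these lists was not tested.

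**Figure D4:**
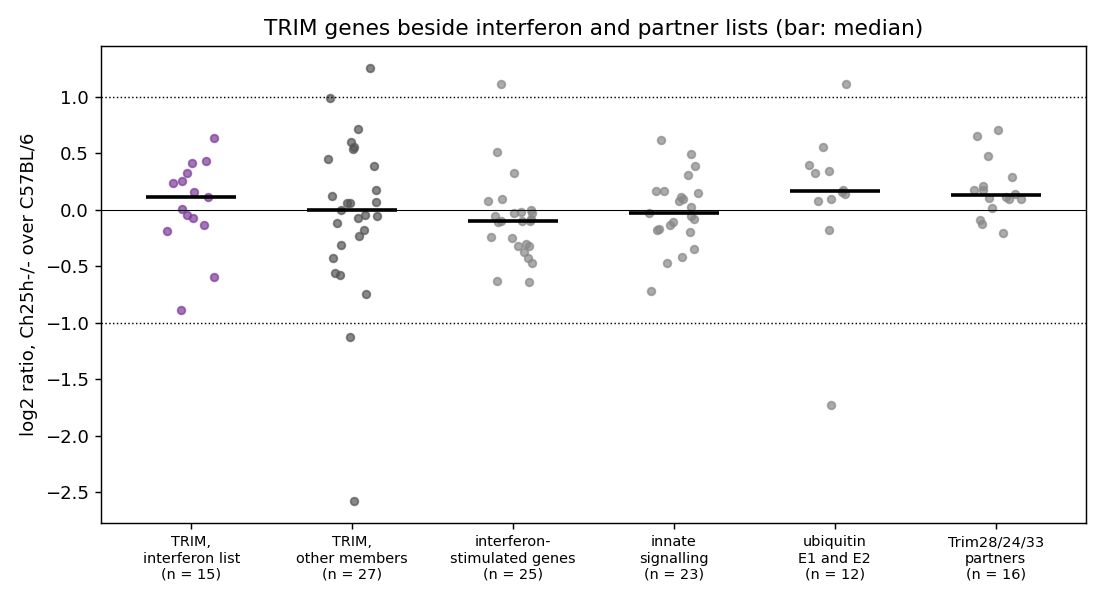
Log2 ratio of each measured gene in 6 groups, with the median as a bar and 2-fold as dotted lines. TRIM genes of the interferon list have a median of 0.11 and other interferon-stimulated genes one of -0.10, and the groups overlap over most of their range.

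Of the PRY-SPRY members outside the interferon list, Trim7, Trim35, Trim11 and Trim65 were lower in the Ch25h-/- library by more than counting error. Trim43b and Trim69, which are also of this class and rest on few counts, were lower too and are given further below. Trim7, a ligase that binds the glycogen primer glycogenin, had 18.6 CPM in the Ch25h-/- library and 31.3 CPM in the C57BL/6 library, 1.68-fold lower (log2 ratio -0.75, -0.96 to -0.54). Genes on the opposite strand overlap 8.31% of its exon length. Trim35 had 74.5 and 112 CPM in that order (-0.58, -0.69 to -0.48). Trim11 had 85.2 and 115 CPM (-0.43, -0.53 to -0.33). The lower genes named here were picked for that direction, so sharing it is not a separate result. Trim65, a ligase of the RNA sensor MDA5, had 24.6 CPM in the Ch25h-/- library and 30.5 CPM in the C57BL/6 library (-0.31, -0.50 to -0.12), and it overlaps Trim47 on the same strand. The remaining well-expressed PRY-SPRY members were level within counting error. They were Trim39 (93.9 and 94.2 CPM), Trim27 (67.3 and 69.8 CPM), Trim41 (66.2 and 68.3 CPM), Trim62 (21.3 and 20.3 CPM) and Trim68 (14.5 and 13.3 CPM), with the Ch25h-/- value first in each pair. Over all 24 measured PRY-SPRY members with a RING, 6 lay wholly above a ratio of 1 and 8 wholly below, beside 31.0% and 27.5% of all measured genes.

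Chromatin members carry a PHD finger and a bromodomain and differed little. Trim28, the corepressor KAP1 that KRAB zinc finger proteins use to silence transposable elements, had 207 CPM in the Ch25h-/- library and 199 CPM in the C57BL/6 library (log2 ratio 0.06, -0.01 to 0.13). Trim24, a coregulator of nuclear receptors, had 64.5 and 73.2 CPM in that order (-0.18, -0.30 to -0.06). Trim33, a regulator of Smad signalling, had 107 and 94.6 CPM (0.18, 0.08 to 0.28). Their relative Trim66 had 8 counts in the Ch25h-/- library and 0 in the C57BL/6 library, with an interval of the log2 ratio that began at 0.88, and it was not measured. Of 16 partner genes of these proteins, 10 lay wholly above and 3 wholly below a ratio of 1 (31.0% and 27.5% of all measured genes), none at 2-fold. The heterochromatin protein gene Cbx5 had 264 CPM in the Ch25h-/- library and 162 CPM in the C57BL/6 library (0.71), Smad3 had 158 and 101 CPM (0.65), and Cbx3 had 29.9 and 21.4 CPM (0.48). Chd4, the most abundant, stood at 0.10.

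The measured members with a transmembrane end (Trim13 and Trim59) or a COS box (Trim36 and Trim46) lay above a ratio of 1, and so did Trim37. Trim59, an endoplasmic reticulum member with a transmembrane anchor, had 51.3 CPM in the Ch25h-/- library and 33.9 CPM in the C57BL/6 library, 1.51-fold higher (log2 ratio 0.60, 0.44 to 0.75). Trim13, its anchored relative, had 96 counts in the Ch25h-/- library and 63 in the C57BL/6 library (0.72, 0.25 to 1.20). Trim37, a MATH domain ligase that restrains centrosome duplication, had 34.7 and 23.9 CPM in that order (0.54, 0.35 to 0.73). The COS box members that bind microtubules were Trim46, with 28.5 CPM in the Ch25h-/- library and 19.4 CPM in the C57BL/6 library (0.55, 0.35 to 0.76), and Trim36, with 16.5 and 12.6 CPM (0.39, 0.12 to 0.66). All 5 intervals lay above a ratio of 1, where 31.0% of all measured genes did, and Trim37 was set beside the other 4 after its value was seen. Cell cycle genes, with all 12 listed higher and a median of 0.89, and NK cell markers, with a median of 0.80, moved the same way, and their part in these values was not tested. Genes on the opposite strand overlap 6.30% of the exon length of Trim46, and 14.2% of the 50-base words of Trim13 occur in another gene.

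The NHL repeat members, best known from neurons, muscle and stem cells, were low and split. Trim3 had 16.7 CPM in the Ch25h-/- library and 24.5 CPM in the C57BL/6 library (log2 ratio -0.56, -0.79 to -0.33). Trim32, the ligase mutated in a limb-girdle muscular dystrophy, had 150 counts in the Ch25h-/- library and 119 in the C57BL/6 library (0.45, 0.09 to 0.80). Trim2 had 31 counts in the Ch25h-/- library and 14 in the C57BL/6 library, 2.39-fold higher (1.26, 0.30 to 2.28), the only measured member past 2-fold in that direction. Trim71, a target of the microRNA let-7 in stem cells, had 8 counts in the Ch25h-/- library and 1 in the C57BL/6 library, a log2 ratio of 3.11 whose interval ran from 0.21 to 8.58.

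The members that were at least 2-fold lower also rested on few counts. Trim43b, a gene known from the early mouse embryo, had 11 counts in the Ch25h-/- library and 71 in the C57BL/6 library, 5.98-fold lower (log2 ratio -2.58, -3.64 to -1.65). Of its 50-base words 47.7% occur in other genes, mostly Trim43a, which had 1 count in the Ch25h-/- library and 0 in the C57BL/6 library, and Trim43c had 0 in both. Trim69 had 11 counts in the Ch25h-/- library and 26 in the C57BL/6 library, 2.19-fold lower (-1.13, -2.29 to -0.06), an interval that nearly reached 0. Trim16, which lacks a RING and helps clear damaged lysosomes, fell just short of the rule on the other side, with 44 counts in the Ch25h-/- library and 24 in the C57BL/6 library (0.99, 0.24 to 1.77). Trim6 and Trim16 are the members nearest the 2-fold line from inside it.

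The other measured members lay close to a ratio of 1. Trim8, which promotes NF-kB signalling, had 76.8 CPM in the Ch25h-/- library and 73.8 CPM in the C57BL/6 library (log2 ratio 0.06, -0.06 to 0.17). Trim44, which has B-boxes but no RING, had 109 and 119 CPM in that order (-0.12, -0.22 to -0.03). Trim23, which ends in an ARF GTPase domain, had 19.2 and 20.2 CPM (-0.07, -0.30 to 0.16), and Trim45 had 37 and 47 counts (-0.23, -0.90 to 0.42).

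Of the 9 members with counts that were not measured, Trim72 had the most. Trim72, the membrane repair protein MG53 of muscle, had 2 counts in the Ch25h-/- library and 27 in the C57BL/6 library, a log2 ratio of -3.64 with an interval from -6.76 to -1.65, and a gene on the opposite strand overlaps 27.6% of its exon length. Trim40 had 9 counts in the Ch25h-/- library and 0 in the C57BL/6 library, with an interval of the log2 ratio that began at 1.09. Trim47 had 4 and 11 counts, Trim58 had 4 and 0, and Trim17 had 3 and 1, with the Ch25h-/- value first. The 16 members with 0 counts in both libraries were Trim9, Trim10, Trim15, Trim29, Trim31, Trim42, Trim43c, Trim50, Trim52, Trim54, Trim55, Trim60, Trim61, Trim63, Trim67 and Trim75. They include the muscle ligases Trim54, Trim55 and Trim63 and the brain members Trim9 and Trim67. A count of 0 allows up to 3 counts, or 0.189 CPM in the Ch25h-/- library and 0.175 CPM in the C57BL/6 library. The gene ID that the table pairs with Trim61 carries the symbol Apela in GENCODE M21, so the identity of that row is unsure.

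TRIM family proteins with other symbols were followed as a separate list of 11, of which 6 were measured. Pml, the organiser of PML nuclear bodies, had 451 CPM in the Ch25h-/- library and 414 CPM in the C57BL/6 library (log2 ratio 0.12, 0.08 to 0.17). Mefv, the gene of the inflammasome sensor pyrin, had 46.8 CPM in the Ch25h-/- library and 64.6 CPM in the C57BL/6 library (-0.47). Mid2, a microtubule-binding ligase, had 15 counts in the Ch25h-/- library and 57 in the C57BL/6 library (-1.81, -2.74 to -0.97). Fsd1l, with 139 and 46 counts in that order (1.71, 1.22 to 2.22), and Bspry, with 374 and 201 counts (1.01, 0.76 to 1.26), were at least 2-fold higher. By the 2-fold rule 2 of the 6 measured were higher and 1, Mid2, was lower, where 2.07% and 5.77% of all measured genes were.

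The enzymes and targets that TRIM ligases work with were followed as further lists. Of 12 ubiquitin E1 and E2 genes, 6 lay wholly above and 1 wholly below a ratio of 1 (31.0% and 27.5% of all measured genes). The E1 gene Uba1 had 533 CPM in the Ch25h-/- library and 482 CPM in the C57BL/6 library (log2 ratio 0.14), and Ube2e1 had 33.5 and 22.8 CPM (0.56). Only low genes passed 2-fold, with 104 and 52 counts of Ube2v2 (1.11) and 12 and 43 counts of Ube2e2 (-1.73), the Ch25h-/- value first. That is 1 of 12 each way, where 2.07% of all measured genes were higher and 5.77% lower by the 2-fold rule. Of 23 innate signalling genes whose proteins are reported TRIM targets or partners, 8 lay wholly above and 10 wholly below a ratio of 1 (31.0% and 27.5% of all measured genes), none at 2-fold. Ddx58, which encodes RIG-I, the target of Trim25, had 348 CPM in the Ch25h-/- library and 323 CPM in the C57BL/6 library (0.11), beside the log2 ratio of -0.60 of Trim25 itself. Mb21d1, the gene of the DNA sensor cGAS, had 55.0 and 35.9 CPM in that order (0.61), Irf8 had 2007 and 1428 CPM (0.49), and Nlrp3 had 46.2 and 75.9 CPM (-0.72).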

How the data were processed

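The authors deposited whole read counts per gene, 1 column per library. Per the submitters' processing notes, the tools included GSNAP, featureCounts of Subread 1.5.2, edgeR 3.26.8 and FastQC 0.11.9, with GRCm38 and mm10 as builds. The strand setting and the treatment of reads that match several genes are not given in the sources used here. Counts were scaled with TMM factors (edgeR 4.0.16, R 4.3.3). Ratios are Ch25h-/- over C57BL/6, with exact Clopper-Pearson intervals of 1 library's share of both counts (scipy 1.17.1). A gene was measured at a mean of at least 1 CPM, and called at 2-fold or more when its interval excluded 1. No test was run, because each genotype has 1 library. Positions, exon lengths and transcripts come from GENCODE M21 (GRCm38), which holds all 67 member IDs. The calculation was tested on simulated Poisson counts, the model that the intervals assume. That test checks the code and cannot show how calls behave under variation between mice, sorts or library preparations. Named genes are all members with counts, and in other lists the 3 largest ratios and the most abundant gene. One gene that this rule names is not reported here. Mefv, Ddx58 and Xcr1 fall outside that rule and were added after their values were seen. Members and lists were chosen with earlier results of these data known.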

Additional observations from a re-analysis of the deposited data

How the results depend on the processing

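No paired analysis was possible because each genotype has 1 library and the labels give no replicate numbers. By the main rule 1 member was higher and 2 were lower at 2-fold, where 2.07% and 5.77% of all measured genes were. A filter at 5 CPM left 0 and 0. No filter beyond 1 count gave 4 higher (adding Trim40, Trim66 and Trim71) and 3 lower (adding Trim72). A 99% interval left 1 lower, since Trim69 was lost. The share of all genes passing was not computed for these filters and this interval, so these counts have no background beside them. A 1.5-fold rule gave 5 higher and 5 lower, where 7.35% and 11.2% of all measured genes passed. Adding members with other symbols gave 3 higher and 3 lower by the main rule, which 2.07% and 5.77% of all measured genes passed. The share of counts rose to 0.415% in the Ch25h-/- library and 0.405% in the C57BL/6 library. Leaving out the groups of related copies (Trim5, Trim12, Trim30, Trim34 and Trim43), not all of which share much sequence, left 1 lower. It also gave shares of 0.211% in the Ch25h-/- library and 0.230% in the C57BL/6 library, a ratio of shares of 0.919 against 1.02 with them, and an interferon list median of -0.12. The side on which the family total lies therefore depends on these groups, which include Trim30a, the most abundant member, and leave out Trim6 of the chromosome 7 cluster. Scaling by the upper quartile shifted every log2 ratio by 0.01, by total counts by -0.03, and by size factors of DESeq2 1.42.0 by -0.0049. Genes under 10 CPM are limited by depth.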
